A study of Mus musculus with 12 samples.

Results

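The measurement described here is the difference between *D/F* and *T/F* acute myeloid leukemia (AML) in the transcriptional response to CCS1477, a small molecule that binds the bromodomains of the acetyltransferases p300 and CBP. All 12 of the 12 libraries of the series enter it. For each gene and mouse, log2(TPM + 1) of the DMSO-treated cells was subtracted from that of the CCS1477-treated cells of the same mouse, which gives 6 responses, and the 3 *T/F* responses were compared with the 3 *D/F* responses. TPM is the length-normalized share of a gene among all transcripts of a library. Genes were kept where the mean of any of the 4 groups reached 1 TPM, which left 15583 of the 15651 in the deposited table.

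p300 and CBP acetylate histones at enhancers and promoters, H3K27 among their sites, and their bromodomains hold them on acetylated chromatin. Genes under large or densely bound enhancers, such as *MYC* and the lineage transcription factors of blood cells, are known to depend on them strongly. *DNMT3A* writes DNA methylation, TET2 starts its removal, and both are mutated early in AML, often together with an internal tandem duplication of *FLT3* that keeps this cytokine receptor active without its ligand.

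*D/F* mice carry Dnmt3a fl/fl, Flt3 ITD/ITD and Mx1Cre, and *T/F* mice carry Tet2 fl/fl with the same Flt3 ITD/ITD and Mx1Cre alleles. Deletion of the floxed gene rests on leaky activity of uninduced *Mx1*-Cre, which can leave an undeleted copy in a cell. Both genotypes share the *Flt3* duplication. c-Kit+ leukemic splenocytes of 3 moribund mice per genotype were enriched with beads, plated with SCF, IL6 and IL3, and split between CCS1477 and DMSO for 6 hours. *D/F* cells received 4 µM and *T/F* cells 2 µM, so genotype and dose cannot be told apart in any difference given here. No group without leukemia and no other dose is among the libraries, and ages are not in the labels.

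The libraries sum to between 914204 and 931697 TPM, the number of reads behind a TPM is unknown, and only the scatter of 3 mice says how precise a value is. In bulk libraries, fewer cells of a type and less RNA per cell cannot be told apart. Levels of myeloid blast markers differed widely. *Mpo* was at 277 TPM or more in every library and *Kit* at 22.8 TPM or more. *Flt3* was as low as 9.86 TPM with DMSO and 3.60 TPM with CCS1477, both in *D/F* replicate 1, and reached 47.0 TPM in *T/F* replicate 3 with DMSO. *Ptprc*, the common antigen of blood cells, was at no more than 3.11 TPM in any library. *Dnmt3a*, floxed in *D/F* mice, was 29.3, 55.7 and 33.1 TPM with DMSO and 40.8, 49.6 and 43.4 TPM with CCS1477 in the *D/F* mice, and 39.9, 41.9 and 53.9 TPM and 49.1, 52.9 and 57.2 TPM in the *T/F* mice. *Tet2*, floxed in *T/F* mice, went from 41.9, 38.3 and 43.4 TPM to 34.5, 35.6 and 32.5 TPM in the *D/F* mice, and in the *T/F* mice from 29.99, 35.8 and 34.4 TPM to 24.6, 26.1 and 28.7 TPM. *Dnmt3a* overlapped between the genotypes and *Tet2* was lower in *T/F* than in *D/F* within each treatment, and both are sums over whole genes, of which the floxed part is not separated. Their responses differed between the genotypes by 0.01 for *Dnmt3a* (95% interval -0.45 to 0.47) and -0.06 for *Tet2* (95% interval -0.34 to 0.22) on the log2 scale.

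The leukemias of both genotypes answered CCS1477 with largely the same genes, and no single gene could be called different between them. With limma on the 6 responses, 4659 genes rose (29.9% of those tested) and 3768 fell (24.2%) in *D/F*, and 4161 rose (26.7%) and 3015 fell (19.3%) in *T/F* at an adjusted p under 0.05. Of these, 3444 rose in both, 2617 fell in both and 23 moved in opposite directions. The difference between the genotypes passed an adjusted p of 0.05 for 0 genes (0% of those tested), with a lowest adjusted p of 0.163 that 12 genes share. At an unadjusted p under 0.05 there were 2293 genes (14.7%), of which 1273 (8.17%) had the *T/F* response above and 1020 (6.55%) below the *D/F* response. The 3 mice of one genotype did not overlap the 3 of the other for 3635 genes (23.3%), 2028 (13%) above and 1607 (10.3%) below, and for a single gene an exact permutation test of 3 against 3 cannot give a p below 0.1. Differences named from here on therefore did not pass the adjusted test, and they are given as measured, with the unadjusted p.

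**Figure D1:**
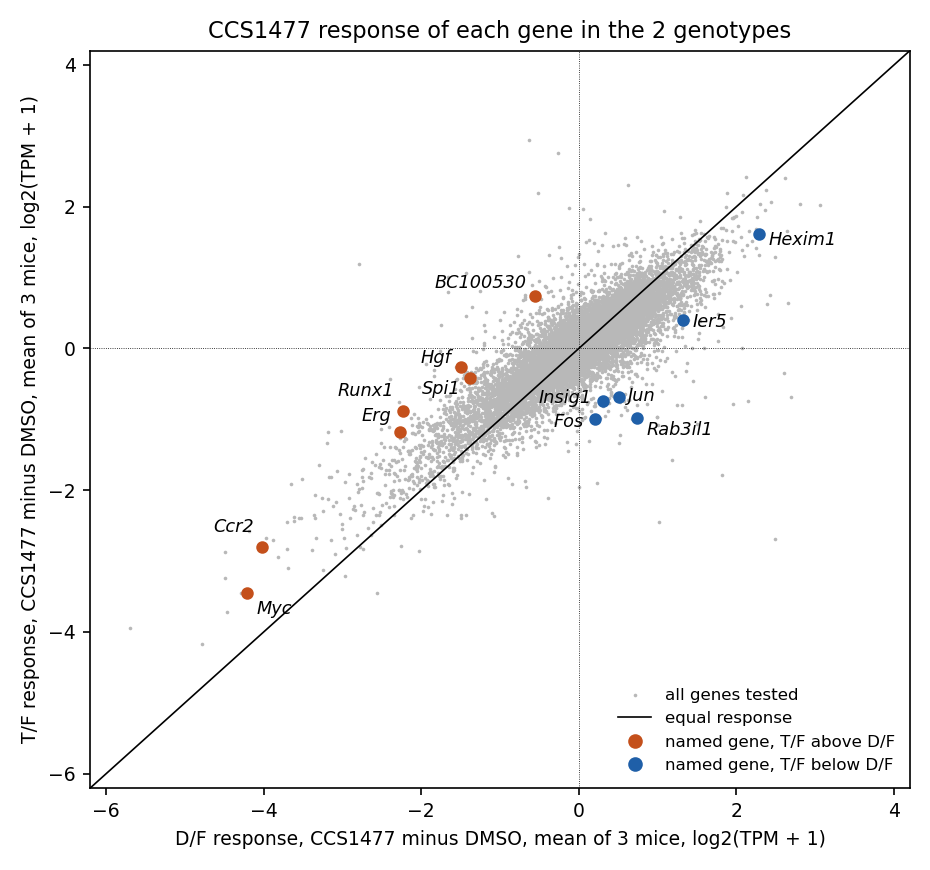
Mean response of each of 15583 genes in 3 *D/F* mice (x axis, 4 µM) and 3 *T/F* mice (y axis, 2 µM), both as CCS1477 minus DMSO in log2(TPM + 1), with the line of equal response and 13 genes of the text named. Most genes lie along the line, the strong falls lie above it on the left, and *Jun*, *Insig1*, *Fos* and *Rab3il1* lie below 0 in *T/F* and above 0 in *D/F*.

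Most of the genes with a low p differed in the size of the response, not in its direction. Across genes the median difference was 0.02, the median SE 0.14, and the middle 90% of genes lay between -0.49 and 0.56 on the log2 scale. Of the 2293 genes at an unadjusted p under 0.05, 1645 moved the same way in both genotypes, and 1319 of these moved less in *T/F* against 326 that moved more. The other 648 had mean responses of opposite sign. Over all genes tested, 13053 (83.8%) had the same sign and 8177 of these moved less in *T/F*. The same sign was thus less common among the genes with a low p than among all genes. Mean responses correlated across genes at r = 0.862, a description over genes that share the same libraries.

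To measure this size, the response of each mouse was regressed across genes on the mean response of the other mice. For a *D/F* mouse these are 2 *D/F* and 3 *T/F* mice, and for a *T/F* mouse 3 *D/F* and 2 *T/F* mice. The mean of the *D/F* mice and that of the *T/F* mice entered this reference with equal weight. The effect of having 2 or 3 mice behind such a mean was not tested. The slope was 0.939, 1.10 and 1.02 in the *D/F* mice and 0.866, 0.829 and 0.881 in the *T/F* mice. Every *D/F* mouse was above every *T/F* mouse, with means of 1.02 ± 0.080 and 0.859 ± 0.027 (SD, n = 3), a ratio of 0.842 (exact permutation test, two-sided, p = 0.1, the smallest that 3 against 3 allows, and 0.133 adjusted over 8 measures of size). The number of genes that fell by more than 1 on the log2 scale was 1130, 1698 and 1098 in *D/F* against 889, 844 and 996 in *T/F*, and the number above 1 was 847, 928 and 1030 against 717, 473 and 547. Neither count overlapped between the genotypes. Beyond 2 on the log2 scale, the falls still did not overlap (196, 437 and 197 against 123, 139 and 151 genes), whereas the rises did (65, 92 and 66 against 69, 18 and 27).

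**Figure D2:**
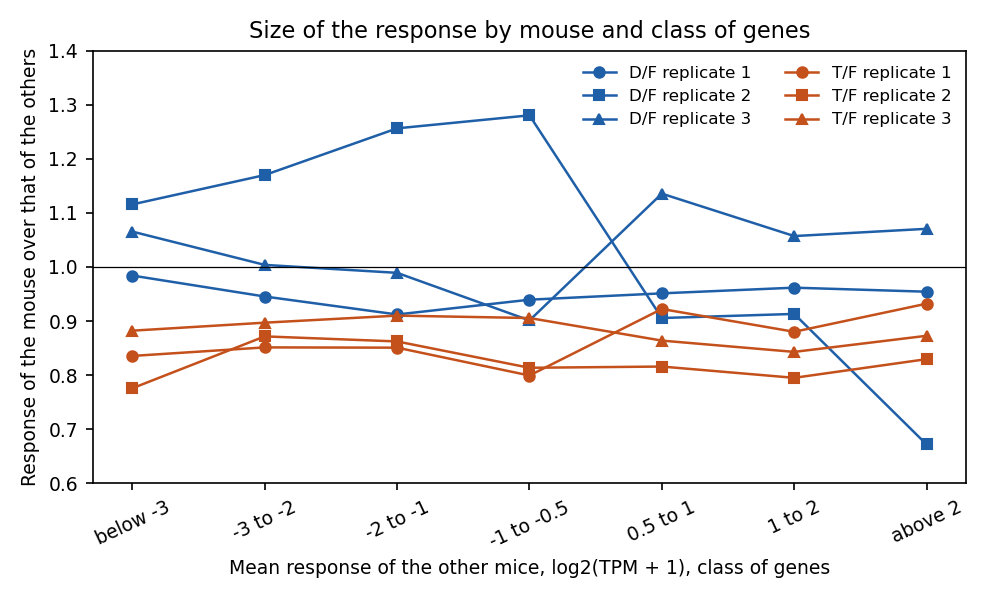
Response of each mouse divided by the mean response of the other mice (y axis, ratio), for classes of genes by that mean response (x axis, log2(TPM + 1)), with 1 line per mouse. The *T/F* lines run between 0.776 and 0.932 in all 7 classes shown, and *D/F* replicate 2 runs from 1.28 among moderate falls to 0.672 in the class above 2, which holds 12 to 16 genes.

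In the classes of genes that fell by more than 1 on the log2 scale, the mean response was smaller in every *T/F* mouse. Between -2 and -1 this was narrow, with -1.238 in *D/F* replicate 1 and -1.234 in *T/F* replicate 3. The classes use the same reference, with the genotypes weighted equally, and the effect of the number of mice behind it was not tested. Genes whose mean response lay between -2 and -1 averaged -1.42 ± 0.24 in *D/F* against -1.18 ± 0.044 in *T/F* (SD, n = 3), and genes between -3 and -2 averaged -2.44 ± 0.26 and -2.05 ± 0.056. Rises between 1 and 2 did not overlap either, at 1.23 ± 0.087 against 1.05 ± 0.056, with an exact permutation p of 0.1 in each of these classes. The mice did overlap among the weaker falls and rises between 0.5 and 1 in size and among the rises above 2. *D/F* replicate 2 stood apart within its genotype, with the steepest slope and more falls beyond -2 than the other *D/F* mice. Its CCS1477 library also had the lowest TPM sum. The median SD over mice was 0.196 in *D/F* against 0.121 in *T/F*, 1.62 times as large, and 1.05 times without *D/F* replicate 2. When every response was divided by the slope of its mouse and fitted again, 2063 genes (13.2%) had an unadjusted p under 0.05. These need not be the same genes as before the division, and 0 had an adjusted p under 0.05.

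Of the genes with the lowest p whose *T/F* response lay above the *D/F* response, *Hgf*, *Ccr2*, *Nrros*, *Plcb2*, *Myo7a* and *Gm10612* fell in both genotypes. *Hgf*, the growth factor ligand of the receptor Met, was 19.2, 19.3 and 11.2 TPM with DMSO and 5.40, 6.29 and 3.76 TPM with CCS1477 in the *D/F* mice, and 9.53, 7.39 and 10.04 TPM and 7.37, 6.34 and 8.34 TPM in the *T/F* mice. Every *D/F* mouse was above every *T/F* mouse with DMSO and below every *T/F* mouse with CCS1477. *Hgf* (chr5:16553495-16620152, plus strand, GRCm38) fell in both genotypes, with log2 responses of -1.66, -1.48 and -1.36 in *D/F* against -0.33, -0.19 and -0.24 in *T/F*, a log2 difference of 1.24 (SE 0.11, unadjusted p = 2.58e-05, adjusted p = 0.163 from limma). *Ccr2*, the chemokine receptor by which monocytes follow Ccl2, went from 142, 99.4 and 114 TPM to 8.60, 4.10 and 6.86 TPM in the *D/F* mice, and in the *T/F* mice from 241, 341 and 245 TPM to 34.5, 48.8 and 32.7 TPM. With DMSO every *T/F* mouse was above every *D/F* mouse, and with CCS1477 the gap was wider as a ratio. *Ccr2* (chr9:124101950-124113557, plus strand) fell in both, by 4.02 in *D/F* against 2.81 in *T/F* on the log2 scale, a log2 difference of 1.22 (SE 0.14, unadjusted p = 0.000108, adjusted p = 0.163 from limma), and the difference was 0.68 after division by the slope of each mouse.

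*Nrros*, a transmembrane protein that restrains reactive oxygen species in phagocytes, was 157, 195 and 191 TPM with DMSO and 30.5, 36.9 and 37.4 TPM with CCS1477 in the *D/F* mice, and 208, 217 and 242 TPM and 71.1, 72.4 and 79.1 TPM in the *T/F* mice. *Plcb2*, a phospholipase C of blood cells, went from 99.8, 166 and 100.3 TPM to 26.5, 37.8 and 24.6 TPM in the *D/F* mice, and in the *T/F* mice from 81.7, 82.6 and 87.1 TPM to 35.9, 39.3 and 39.3 TPM. Both genes fell in every mouse and kept less of their DMSO level in *D/F*. The log2 difference was 0.77 (unadjusted p = 5.91e-05) for *Nrros* (chr16:32142785-32165594, minus strand), 0.48 after division by the slope, and 0.87 (unadjusted p = 0.000103) for *Plcb2* (chr2:118707517-118728438, minus strand). *Myo7a*, an unconventional myosin (chr7:98051060-98119524, minus strand), had log2 responses of -1.36, -1.24 and -1.23 in *D/F* against -0.31, -0.20 and -0.39 in *T/F*, a difference of 0.97 (unadjusted p = 4.38e-05). *Gm10612*, an antisense transcript whose reads may be shared with the gene on the other strand, differed by 1.02 (unadjusted p = 1.4e-05). For these 6 genes the adjusted p from limma was 0.163 and the mice of the genotypes did not overlap.

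The promoter of *Hgf*, the gene with the largest log2 difference among these 6, is shown here. It is given 5′ to 3′ in lower case as RefSeq has it for GRCm38.p6, from 250 bases before the annotated start to 50 bases after it, and it holds none of the motifs searched here.
Hgf promoter, chr5:16553245-16553544, plus strand: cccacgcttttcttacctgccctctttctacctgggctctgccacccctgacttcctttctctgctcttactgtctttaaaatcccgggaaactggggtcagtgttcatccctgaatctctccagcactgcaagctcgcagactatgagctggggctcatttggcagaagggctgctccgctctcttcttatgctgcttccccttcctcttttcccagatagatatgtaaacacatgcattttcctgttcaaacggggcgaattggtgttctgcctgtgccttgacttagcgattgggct

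In the other direction, with *T/F* below *D/F*, the protein-coding genes *Cnnm4*, *Baiap2*, *Hivep3* and *Trim36* rose in both genotypes and rose less in every *T/F* mouse. *Cnnm4*, a magnesium transporter, was 12.2, 13.8 and 13.2 TPM with DMSO and 35.9, 39.8 and 38.2 TPM with CCS1477 in the *D/F* mice, and 14.3, 15.03 and 14.8 TPM and 26.5, 26.05 and 26.9 TPM in the *T/F* mice. With DMSO every *T/F* mouse was slightly above every *D/F* mouse, and with CCS1477 every *D/F* mouse was above every *T/F* mouse. *Cnnm4* (chr1:36471620-36508764, plus strand) had log2 responses of 1.47 in *D/F* against 0.81 in *T/F*, a log2 difference of -0.66 (SE 0.08, unadjusted p = 0.00015, adjusted p = 0.17 from limma). *Baiap2*, an adaptor of the actin cytoskeleton, went from 12.4, 22.4 and 14.1 TPM to 35.2, 66.2 and 42.2 TPM in the *D/F* mice, and in the *T/F* mice from 14.6, 18.3 and 23.9 TPM to 26.4, 29.8 and 35.9 TPM. *Baiap2* (chr11:119942763-120006782, plus strand) differed by -0.80 (unadjusted p = 0.00017) and the zinc finger factor *Hivep3* (chr4:119733784-120138045, plus strand) by -0.82 (unadjusted p = 0.000261), without overlap of the mice. The ubiquitin ligase *Trim36* differed by -1.01 (unadjusted p = 0.000256) at levels of no more than 10.6 TPM. *Gm20519*, *Gm15497* and *Gm10269* are processed pseudogenes, between which and their parent genes reads can be split, and *Rpl34* has many such copies. *Rpl34* (chr3:130726831-130730398, minus strand) was 952, 1184 and 985 TPM in the *D/F* and 57.3, 47.2 and 61.4 TPM in the *T/F* mice with DMSO, and its log2 difference of response was -0.89 (unadjusted p = 0.000207). These values are uncertain for that reason.

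**Figure D3:**
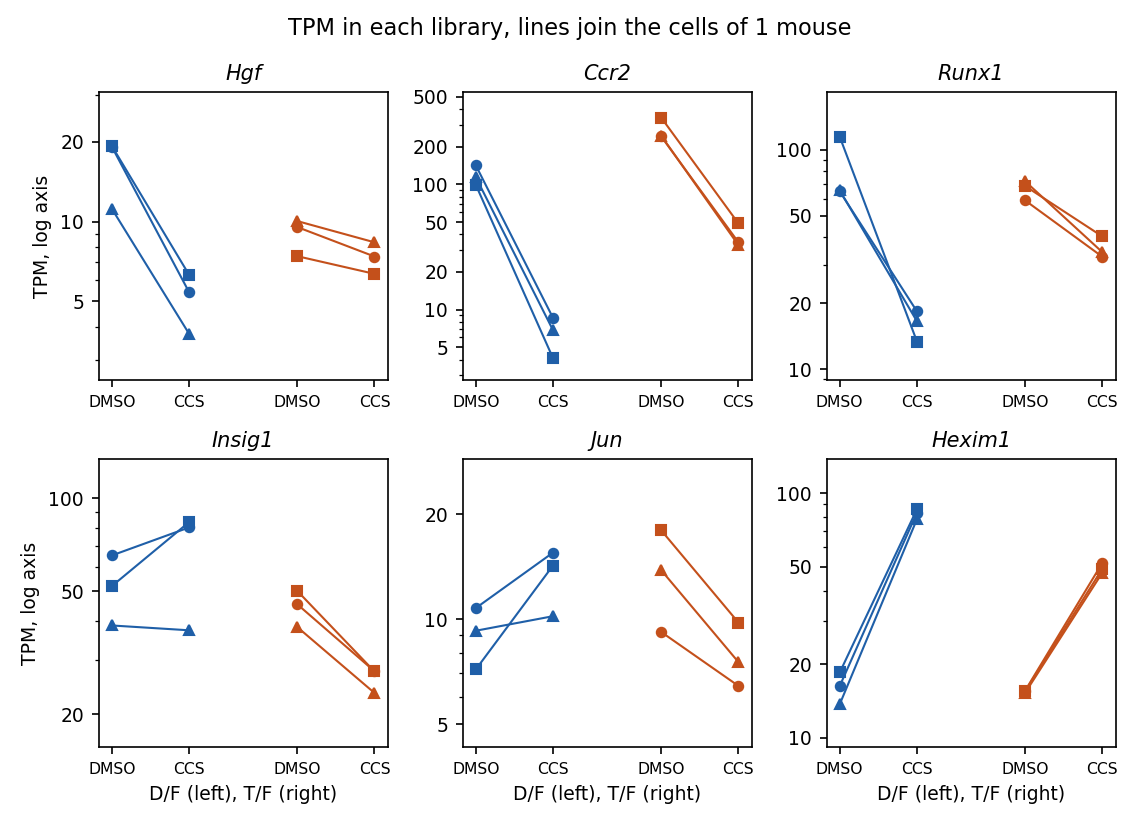
TPM of 6 genes in each library on log axes, with a line from the DMSO to the CCS1477 cells of each mouse (*D/F* on the left, *T/F* on the right of each panel, 3 mice each). *Hgf*, *Ccr2* and *Runx1* fall more steeply in *D/F*, *Hexim1* rises more steeply in *D/F*, and *Jun* and *Insig1* go down in all *T/F* mice.

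Among transcription factors of blood stem cells and of the myeloid lineage, those with the lowest p fell in *D/F* and fell less or were not called in *T/F*. Of 44 tested stem and progenitor genes, 13 had the *T/F* response above *D/F* at an unadjusted p under 0.05 (against 8.17% of all genes) and 0 below. The median difference over the list was 0.33, against 0.02 over all genes. Within genotypes, 26 of the genes fell and 3 rose in *D/F*, where 24.2% of all genes fell and 29.9% rose, and 21 fell and 3 rose in *T/F*, where 19.3% of all fell and 26.7% rose. The list median was -0.59 in *D/F* replicates 1 and 3 and lower in replicate 2, against -0.43, -0.27 and -0.51 in the *T/F* mice, without overlap, and the median difference was 0.19 without *D/F* replicate 2.

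*Runx1*, a core factor of definitive blood formation that is itself mutated in AML, was 64.7, 115 and 65.3 TPM with DMSO and 18.4, 13.4 and 16.5 TPM with CCS1477 in the *D/F* mice, and 58.8, 68.4 and 71.9 TPM and 32.6, 40.3 and 34.1 TPM in the *T/F* mice. With DMSO the genotypes overlapped, and with CCS1477 every *D/F* mouse was below every *T/F* mouse. *Runx1* (chr16:92601466-92826149, minus strand) fell in both genotypes, with log2 responses of -1.76, -3.01 and -1.92 in *D/F* against -0.83, -0.75 and -1.05 in *T/F*, a log2 difference of 1.35 (SE 0.34, unadjusted p = 0.00681, adjusted p = 0.213 from limma). *Spi1*, which encodes PU.1, the master factor of myeloid cells, went from 143, 129 and 146 TPM to 66.8, 39.7 and 56.1 TPM in the *D/F* mice, and in the *T/F* mice from 156, 172 and 158 TPM to 118, 135 and 111 TPM. *Spi1* (chr2:91082390-91115756, plus strand) kept most of its level in *T/F* and lost more than in *T/F* in each *D/F* mouse. Its log2 responses were -1.38 in *D/F* against -0.42 in *T/F*, a log2 difference of 0.96 (SE 0.16, unadjusted p = 0.00103, adjusted p = 0.17 from limma). The granulocyte factor *Cebpe* (chr14:54710360-54712174, minus strand) had log2 responses of -1.92 in *D/F* against -1.07 in *T/F*, a difference of 0.85 (unadjusted p = 0.00496), and *Zeb2* (chr2:44983632-45117395, minus strand), a zinc finger repressor of myeloid and dendritic development, -1.44 in *D/F* against -0.33 in *T/F*, a difference of 1.11 (unadjusted p = 0.00177). These 4 lead a list of 34 myeloid lineage factors that as a whole was split, with 7 above (background 8.17%) and 6 below (background 6.55%) at an unadjusted p under 0.05 and a median difference of 0.06 that was -0.07 without *T/F* replicate 1, -0.04 without *D/F* replicate 2, -0.08 with array weights and -0.01 after division by the slope. The count below was 2 without *T/F* replicate 2 and 3 without replicate 3 of either genotype.

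*Erg*, an ETS factor that maintains stem cells, was 38.4, 76.4 and 40.2 TPM with DMSO and 9.01, 11.2 and 8.25 TPM with CCS1477 in the *D/F* mice, and 23.2, 21.5 and 34.1 TPM and 10.4, 7.59 and 15.5 TPM in the *T/F* mice. *Myb*, a factor of immature blood cells on which AML depends, went from 332, 406 and 298 TPM to 63.5, 80.2 and 60.7 TPM in the *D/F* mice, and in the *T/F* mice from 247, 218 and 252 TPM to 82.2, 62.98 and 90.9 TPM. *Erg* and *Myb* ended with CCS1477 at levels that overlapped between the genotypes, from DMSO levels that were higher in every *D/F* mouse. The log2 difference of response was 1.08 (unadjusted p = 0.0017) for *Erg* (chr16:95359169-95586593, minus strand) and 0.72 (unadjusted p = 0.000548) for *Myb* (chr10:21124935-21160984, minus strand). *Fli1* (chr9:32422204-32542861, minus strand), another ETS factor, went from 145, 108 and 141 TPM to 50.2, 42.8 and 53.6 TPM in *D/F* and from 124, 121 and 105 TPM to 72.4, 69.4 and 70.6 TPM in *T/F*, so that the treated cells of the genotypes did not overlap. Its log2 difference was 0.70 (unadjusted p = 0.0006), and that of the ETS repressor *Etv6* (chr6:134035700-134270158, plus strand) 0.67 (unadjusted p = 0.00509). After division by the slope of each mouse the differences were 1.14 for *Runx1*, 0.86 for *Spi1*, 0.83 for *Erg*, 0.56 for *Fli1*, 0.41 for *Etv6* and 0.41 for *Myb*, all still above 0, with an unadjusted p of 0.0515 for *Myb* and under 0.05 for the other 5. The receptors *Flt3* and *Kit* overlapped between the genotypes, with log2 differences of 0.33 (unadjusted p = 0.0845) and 0.33 (unadjusted p = 0.0892) that were 0.082 and 0.14 after the same division, and that of *Kit* was 0.18 without *T/F* replicate 3.

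**Figure D4:**
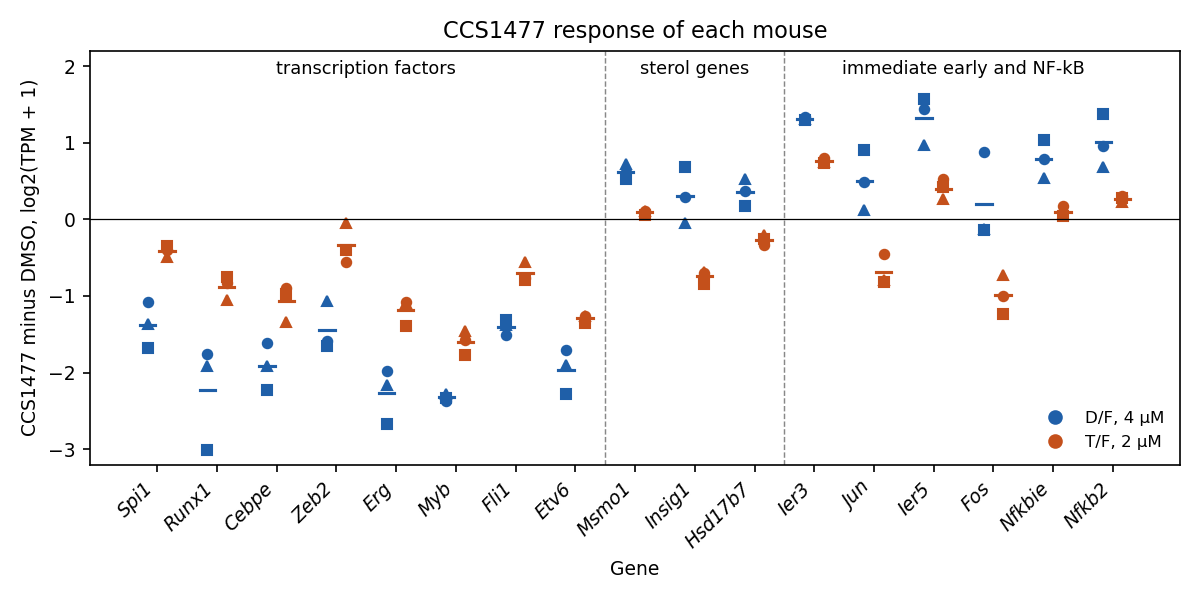
Response of each mouse (y axis, CCS1477 minus DMSO in log2(TPM + 1)) for 17 genes, with *D/F* in blue and *T/F* in orange, 3 mice each, and a bar at the mean. For every gene shown the 3 mice of one genotype lie on 1 side of the 3 of the other. The blood lineage transcription factors shown lie lower in *D/F*, and the sterol, immediate early and NF-kB genes lie lower in *T/F*.

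*Myc* fell further in every *D/F* mouse than in any *T/F* mouse, and most of this difference was gone once responses were divided by the slope of the mouse. *Myc*, the driver of growth and ribosome genes, was 300.3, 468 and 367 TPM with DMSO and 20.7, 17.8 and 19.02 TPM with CCS1477 in the *D/F* mice, and 265, 229.5 and 311 TPM and 24.9, 19.3 and 27.1 TPM in the *T/F* mice. The treated cells of the genotypes overlapped. The log2 responses were -3.79, -4.65 and -4.20 in *D/F* against -3.36, -3.50 and -3.47 in *T/F*, a log2 difference of 0.77 (SE 0.22, unadjusted p = 0.012, adjusted p = 0.241 from limma). After division by the slope of each mouse the difference was 0.11 (unadjusted p = 0.42). Of 56 MYC target genes, 50 fell in *D/F* (against 24.2% of all genes) and 48 in *T/F* (against 19.3%), with median log2 responses of -0.96 and -1.04. At an unadjusted p under 0.05, 4 of them had *T/F* above (background 8.17%) and 2 below *D/F* (background 6.55%). In this fit these shares were no higher than those of all genes. Without *D/F* replicate 3 the count above was 7, with 1497 of all genes tested in that fit above, and without *T/F* replicate 1 it was 2. The count below was 4 without *D/F* replicate 2 and 1 without *D/F* replicate 3, and reached 9 over all settings. The median difference of 0.08 turned to -0.01 without *D/F* replicate 2 and to -0.15 after division by the slope. *Cdk4*, a cell cycle kinase that MYC induces, went from 629, 434 and 679 TPM to 331, 228 and 376 TPM in the *D/F* mice, and in the *T/F* mice from 558, 505 and 581 TPM to 374, 400.5 and 397 TPM. Its log2 difference was 0.41 (unadjusted p = 0.00611), the lowest p of the list.

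Genes of cholesterol and fatty acid synthesis had a median response that was lower in every *T/F* mouse than in any *D/F* mouse. Cells make cholesterol through the mevalonate pathway, whose enzymes are switched on together by SREBP2 when sterols are low. Of 38 tested genes, 17 had the *T/F* response below *D/F* at an unadjusted p under 0.05, against 6.55% of all genes, and 0 above. For 21 of the 38 the mice did not overlap in this direction, against 10.3% of all genes, and the median difference was -0.30. In *D/F* 18 of the genes rose and 3 fell (all genes 29.9% and 24.2%), and in *T/F* 7 rose and 10 fell (all genes 26.7% and 19.3%). The list median was 0.29, 0.18 and 0.20 in the *D/F* mice and -0.09, -0.05 and -0.13 in the *T/F* mice.

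*Insig1*, the endoplasmic reticulum protein that holds back SREBP and is its target, was 65.3, 51.9 and 38.7 TPM with DMSO and 80.4, 83.7 and 37.4 TPM with CCS1477 in the *D/F* mice, and 45.4, 50.1 and 38.3 TPM and 27.5, 27.5 and 23.4 TPM in the *T/F* mice. With DMSO the genotypes overlapped, and with CCS1477 every *T/F* mouse was below every *D/F* mouse. *Insig1* (chr5:28071363-28078662, plus strand) fell in *T/F* (log2 responses of -0.70, -0.84 and -0.69) and was not called in *D/F* (0.30, 0.68 and -0.05), a log2 difference of -1.05 (SE 0.19, unadjusted p = 0.00149, adjusted p = 0.171 from limma). *Msmo1*, a sterol demethylase of the pathway, went from 53.6, 79.4 and 40.9 TPM to 82.95, 114 and 68.1 TPM in the *D/F* mice, and in the *T/F* mice from 49.5, 56.1 and 51.3 TPM to 53.6, 58.1 and 55.4 TPM. *Msmo1* (chr8:64718139-64733792, minus strand) rose in *D/F* and was not called in *T/F*, and its log2 difference was -0.53 (unadjusted p = 0.00107). *Hsd17b7* (chr1:169949535-169969241, minus strand), a reductase of the same branch, rose in *D/F* and fell in *T/F*, with log2 responses of 0.37, 0.17 and 0.53 against -0.34, -0.26 and -0.21 and a difference of -0.62 (unadjusted p = 0.0017). Further enzymes at an unadjusted p under 0.05, named after their values were seen, were *Acly* (-0.41), *Sqle* (-0.49) and *Idi1* (-0.56), which rose in *D/F* and were not called in *T/F*. The *T/F* cells with DMSO were already lower for this list by a median of -0.18, and with CCS1477 by -0.48.

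Immediate early genes, which cells induce within minutes of a growth or stress signal, and the feedback genes of NF-kB, the main inducer of inflammatory genes, also had medians that were lower in *T/F*. Of 26 AP-1 and Egr genes, 8 had *T/F* below *D/F* at an unadjusted p under 0.05 (against a background of 6.55% of all genes) and 0 above, with a median difference of -0.32. In *D/F* 9 rose and 5 fell, near the shares of all genes (29.9% and 24.2%), and in *T/F* 3 rose and 9 fell (all genes 26.7% and 19.3%). The list median was 0.23, 0.21 and 0.11 in the *D/F* mice and -0.0018, -0.19 and -0.37 in the *T/F* mice. *Jun*, a subunit of AP-1, was 10.8, 7.18 and 9.27 TPM with DMSO and 15.5, 14.3 and 10.2 TPM with CCS1477 in the *D/F* mice, and 9.20, 17.99 and 13.8 TPM and 6.44, 9.79 and 7.54 TPM in the *T/F* mice. *Jun* (chr4:95049034-95052222, minus strand) rose in *D/F* (log2 responses of 0.49, 0.90 and 0.13) and fell in *T/F* (-0.45, -0.82 and -0.80), a log2 difference of -1.19 (SE 0.22, unadjusted p = 0.00155, adjusted p = 0.171 from limma). Its partner *Fos* was 3.92, 2.13 and 3.16 TPM with DMSO and 8.02, 1.85 and 2.82 TPM with CCS1477 in *D/F*, and 6.26, 13.99 and 5.42 TPM and 2.64, 5.34 and 2.87 TPM in *T/F*. *Fos* (chr12:85473890-85477273, plus strand) fell in *T/F* and was not called in *D/F*, where it was higher in replicate 1 only, and the difference was -1.20 (unadjusted p = 0.00781). *Ier5* (chr1:155096361-155099636, minus strand) and *Ier3* (chr17:35821684-35822923, plus strand), immediate early regulators, rose in both genotypes and differed by -0.92 (unadjusted p = 0.00204) and -0.55 (unadjusted p = 0.000369).

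Of 29 NF-kB feedback genes, 9 had *T/F* below (background 6.55%) and 1 above *D/F* (background 8.17%) at an unadjusted p under 0.05, with a median difference of -0.28 that was -0.13 without *D/F* replicate 2. The count below was 4 without *T/F* replicate 2. In *D/F* 12 of them rose and 5 fell (all genes 29.9% and 24.2%), and in *T/F* 2 rose and 5 fell (all genes 26.7% and 19.3%). *Nfkb2*, the precursor of p52, was 19.4, 52.9 and 32.96 TPM with DMSO and 38.5, 139 and 53.5 TPM with CCS1477 in the *D/F* mice, and 30.8, 39.5 and 56.4 TPM and 38.1, 48.03 and 66.2 TPM in the *T/F* mice. *Nfkbie*, an inhibitor that holds NF-kB in the cytoplasm, went from 9.12, 35.4 and 13.9 TPM to 16.5, 73.8 and 20.6 TPM in the *D/F* mice, and in the *T/F* mice from 13.02, 14.7 and 24.6 TPM to 14.9, 15.2 and 25.8 TPM. Both rose in every *D/F* mouse, most in replicate 2, and neither was called in *T/F*. The log2 differences were -0.74 (unadjusted p = 0.00657) for *Nfkb2* (chr19:46304320-46312385, plus strand) and -0.70 (unadjusted p = 0.00287) for *Nfkbie* (chr17:45555703-45563169, plus strand). *Ier3* belongs to this list as well. The gene on the other side was *Bcl2a1b*, an inhibitor of apoptosis that NF-kB induces.

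Interferon-stimulated genes, the antiviral genes that cells switch on when interferon binds its receptor, had medians in the mice that overlapped between the genotypes, with more genes above than below at a low p. Of 63 tested, 12 had *T/F* above (background 8.17%) and 2 below *D/F* (background 6.55%) at an unadjusted p under 0.05, with a median difference of 0.26. The count above was 7 without *T/F* replicate 1 or 2 and 19 without *D/F* replicate 1. In *D/F* 9 rose and 20 fell (all genes 29.9% and 24.2%), and in *T/F* 12 rose and 12 fell (all genes 26.7% and 19.3%). The list median was -0.44 in *D/F* replicate 2 and -0.02 in both other *D/F* mice, against 0.08, 0.04 and -0.04 in *T/F*, and without *D/F* replicate 2 the median difference was 0.11. *Gbp3*, a guanylate-binding protein, was 23.9, 37.01 and 20.5 TPM with DMSO and 6.30, 13.6 and 5.65 TPM with CCS1477 in the *D/F* mice, and 15.7, 15.2 and 21.6 TPM and 9.19, 8.06 and 10.03 TPM in the *T/F* mice. *Gbp3* (chr3:142560026-142573209, plus strand) fell in both genotypes, with a log2 difference of 0.75 (unadjusted p = 0.00192). *Gbp7* (chr3:142530342-142550149, plus strand), its neighbour, fell in *D/F* and was not called in *T/F* (log2 responses of -0.03, 0.03 and 0.06), with a difference of 0.48 (unadjusted p = 0.00353). *Cmpk2* (chr12:26469204-26479837, plus strand), a mitochondrial nucleotide kinase, rose in both and more in *T/F*, with a difference of 0.65 (unadjusted p = 0.0022). *Dhx58* (chr11:100694884-100704271, minus strand), a sensor of viral RNA, rose in *T/F* and was lower but not called in *D/F*, and differed by 0.39 (unadjusted p = 0.00316).

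The promoters of 3 of these genes are printed because the letters through which interferon acts can be read in them. The letters searched, on both strands, were GAAA, any 2 bases and a second GAAA. They stood in the 300 bases around the start of 25 of 48 genes of the list (52.1%) and of 3.89% of the 10595 tested genes with an entry. Of the 12 genes above at an unadjusted p under 0.05, 9 have an entry and 4 of these 9 hold the letters. Capitals mark the matches, and the sequences are from RefSeq for GRCm38.p6, 5′ to 3′ on the strand of the gene.
Gbp3 promoter, chr3:142559794-142560093, plus strand: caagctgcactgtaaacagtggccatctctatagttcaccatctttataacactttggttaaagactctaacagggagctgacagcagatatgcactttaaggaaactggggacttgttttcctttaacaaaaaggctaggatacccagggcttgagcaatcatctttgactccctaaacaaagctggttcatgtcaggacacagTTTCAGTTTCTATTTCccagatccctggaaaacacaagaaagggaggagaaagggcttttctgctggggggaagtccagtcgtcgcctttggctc
Gbp7 promoter, chr3:142530086-142530385, plus strand: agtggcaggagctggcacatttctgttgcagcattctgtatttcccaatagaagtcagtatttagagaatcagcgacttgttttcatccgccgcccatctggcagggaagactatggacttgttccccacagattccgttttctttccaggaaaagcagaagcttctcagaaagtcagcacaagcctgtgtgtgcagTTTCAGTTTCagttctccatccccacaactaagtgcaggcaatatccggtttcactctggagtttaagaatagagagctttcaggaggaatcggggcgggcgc
Igtp promoter, chr11:58199306-58199605, plus strand: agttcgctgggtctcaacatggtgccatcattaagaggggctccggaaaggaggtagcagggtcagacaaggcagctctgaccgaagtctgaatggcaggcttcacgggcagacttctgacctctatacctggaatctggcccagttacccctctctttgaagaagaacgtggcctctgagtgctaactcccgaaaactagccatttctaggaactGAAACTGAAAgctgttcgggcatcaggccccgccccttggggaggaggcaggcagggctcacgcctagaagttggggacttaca

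In *Gbp3* there are 2 overlapping matches and in *Gbp7* and *Igtp* 1 each, on the upstream side of the start, while in *Ifih1*, the fourth of these genes with the letters, the match lies downstream of it. *Igtp*, a GTPase against intracellular parasites, fell in *D/F* and was not called in *T/F*, with a log2 difference of 0.38 (unadjusted p = 0.0377). The same search for the AP-1 letters TGACTCA found them in 1 of 23 AP-1 and Egr genes (4.35%) and 9 of 48 interferon-stimulated genes (18.8%) against 4.72% of all. The STAT letters TTCNNNGAA stood in 7 of 24 NF-kB feedback genes (29.2%) and 12 of 48 interferon-stimulated genes (25%) against 8.41%. The E-box CACGTG, which MYC and SREBP can bind, stood in 6 of 27 cholesterol and fatty acid genes (22.2%) and 6 of 23 AP-1 and Egr genes (26.1%) against 11.3%. The sterol letters TCACNCCAC, chosen after seeing the data, stood in 0 of the 27 and in 1.43% of all. Both strands were read, matches may overlap between motifs, and a match is a description of these windows only.

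Most of the inflammatory and of the later granule genes of myeloid cells fell in each genotype, and more of them had *T/F* above than below *D/F*. Of 48 myeloid cytokine, chemokine and inflammatory genes, 38 fell in *D/F* (against 24.2% of all genes) and 36 in *T/F* (against 19.3%), and 11 had *T/F* above (background 8.17%) and 3 below *D/F* (background 6.55%) at an unadjusted p under 0.05. The median difference of 0.27 was 0.099 after division by the slope, with 5 genes above and 5 below, and 0.44 with a pseudocount of 0.1 TPM. The list medians of the mice overlapped between the genotypes. *Ccr2* leads this list, followed by *Thbs1*, which encodes thrombospondin. *Thbs1* (chr2:118111876-118127133, plus strand) had log2 responses of -4.15, -4.24 and -4.47 in *D/F* against -3.51, -3.55 and -3.28 in *T/F*, a difference of 0.84 (unadjusted p = 0.000599) that was 0.19 after division by the slope. *Clec4e*, a lectin receptor for fungal and mycobacterial glycolipids, went from 21.6, 26.5 and 19.8 TPM to 0.849, 2.63 and 1.18 TPM in the *D/F* mice, and in the *T/F* mice from 18.9, 21.5 and 24.8 TPM to 3.58, 3.91 and 5.34 TPM. *Tlr4*, the receptor for bacterial lipopolysaccharide, was 42.7, 16.1 and 26.7 TPM with DMSO and 22.1, 10.5 and 17.6 TPM with CCS1477 in the *D/F* mice, and 27.5, 33.2 and 21.5 TPM and 26.3, 32.2 and 19.7 TPM in the *T/F* mice. *Clec4e* (chr6:123281789-123289870, minus strand) fell in both genotypes and differed by 1.15 (unadjusted p = 0.000754), and by 0.77 after division by the slope, while *Tlr4* (chr4:66827584-66930284, plus strand) fell in *D/F*, was not called in *T/F* and differed by 0.61 (unadjusted p = 0.00229).

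Of 29 secondary and tertiary granule genes, made in later neutrophil precursors, 22 fell in *D/F* (against 24.2% of all genes) and 17 in *T/F* (against 19.3%), and 8 had *T/F* above (background 8.17%) and 0 below *D/F* at an unadjusted p under 0.05. The median difference was 0.36, and 0.17 without *D/F* replicate 2, whose list median of -1.46 stood apart from -0.67 and -0.72 in the other *D/F* mice. *Mmp25* (chr17:23628311-23645277, minus strand), a membrane protease of neutrophils, differed by 0.68 (unadjusted p = 0.00074). *Ncf4* (chr15:78244801-78262580, plus strand) and *Cybb* (chrX:9435252-9487771, minus strand), subunits of the phagocyte NADPH oxidase, differed by 0.67 (unadjusted p = 0.00175) and 0.81 (unadjusted p = 0.0055). *Retnlg* (chr16:48872621-48874496, plus strand), a resistin-like protein of neutrophils, differed by 1.01 (unadjusted p = 0.00441). Of 15 primary granule genes 2 were above and 0 below, with a median difference of 0.28 that was 0.15 without *D/F* replicate 2 and 0.041 after division by the slope.

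Lists of markers of other cell types had median differences from -0.05 for macrophage markers, which turned to 0.19 with a pseudocount of 0.1 TPM, to 0.62 for mast cell and basophil markers. The counts given here are at an unadjusted p under 0.05, which 8.17% of all genes reached above and 6.55% below, and many of the lists are too short for a count to be read against these shares. Without *D/F* replicate 2 the median difference of mature neutrophil markers was 0.035, of mast cell and basophil markers 0.31, of megakaryocyte and platelet markers 0.047 and of erythroid markers -0.35, and after division by the slope the first 2 were 0.17 and 0.41. All 13 mature neutrophil markers were tested, with 3 above, 0 below, a median difference of 0.27 and summed levels of 3031.7 to 10243 TPM in *D/F* against 2631.2 to 7759 TPM in *T/F* under DMSO, and of 1788 to 9910.3 TPM and 2745.6 to 7367 TPM with CCS1477. Of 8 tested of 13 mast cell and basophil markers 4 were above and 0 below, with a median difference of 0.62 and sums of 156 to 306 TPM in *D/F* against 71.3 to 136 TPM in *T/F* under DMSO, and of 69.3 to 73.7 TPM and 38.7 to 71.8 TPM with CCS1477, and the count above was 2 without *T/F* replicate 1 or 2, while *Fcer1a*, *Cma1* and *Mcpt4* were not among the genes tested. Of 10 megakaryocyte and platelet markers 2 were above, of 4 tested of 12 stromal and endothelial markers 2, of 6 of 13 T cell markers 1, of 3 of 9 NK cell markers 1, and of 7 of 13 B cell markers 2 above and 1 below, with *Cd3e*, *Ncr1* and *Col1a1* not among the genes tested. Of 12 erythroid markers 1 was above and 2 below, of 10 macrophage markers 1 and 1, of 10 dendritic cell markers 0 and 0, and of 12 AML blast markers 2 and 1. Within *D/F*, 11 of the 12 AML blast markers fell and 1 rose (all genes 24.2% and 29.9%), with a median log2 response of -1.55. Within *T/F*, 11 fell and 0 rose (all genes 19.3% and 26.7%), with a median of -1.19. The part of the cell types listed here in the differences above was not tested.

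**Figure D5:**
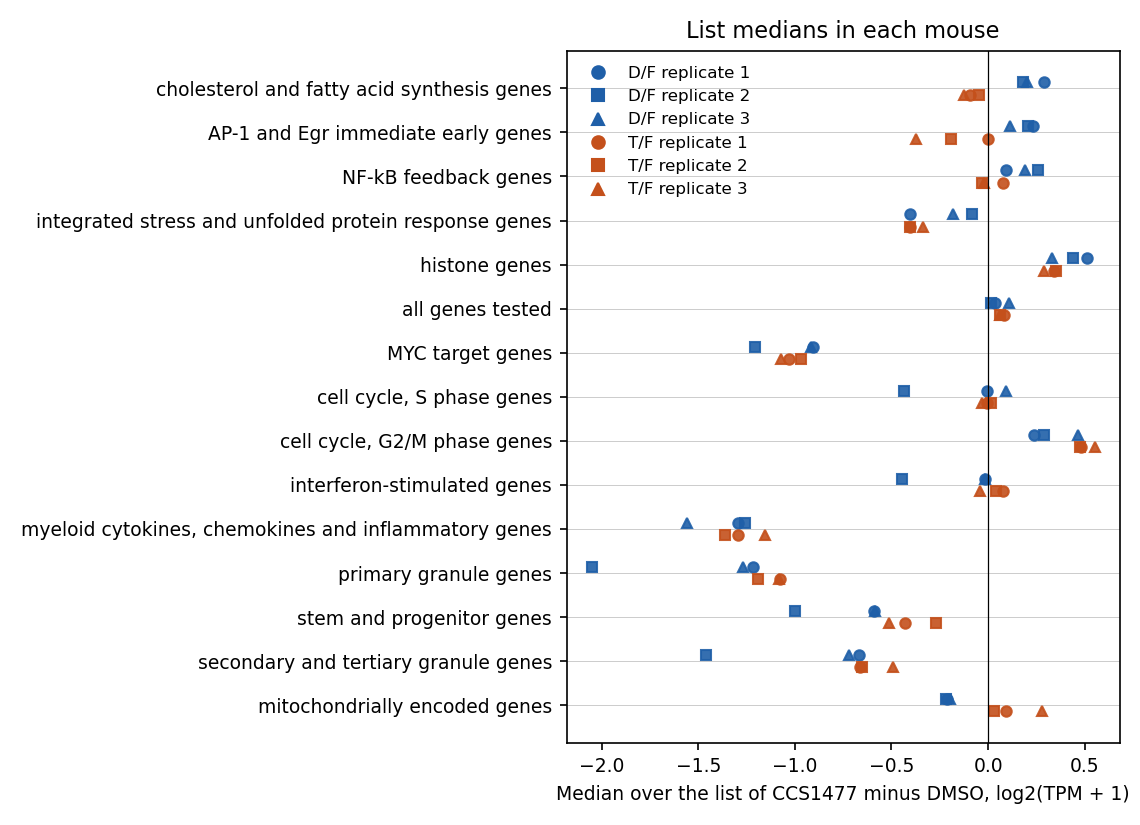
Median response over the genes of each list (x axis, CCS1477 minus DMSO in log2(TPM + 1)) in each of 3 *D/F* and 3 *T/F* mice, for 14 lists and all genes tested. The cholesterol, AP-1 and mitochondrially encoded lists lie above 0 in every mouse of one genotype and below 0 in every mouse of the other. For AP-1, *T/F* replicate 1 lies next to 0, at -0.0018. *D/F* replicate 2 lies far to the left of the other mice for the granule, stem and interferon lists.

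Of 40 G2/M phase genes, which act in mitosis, 25 rose in *D/F* (against 29.9% of all genes) and 33 in *T/F* (against 26.7%). All 40 had a *T/F* response above *D/F*, and 8 were above (background 8.17%) and 0 below at an unadjusted p under 0.05, with a median difference of 0.17 that was 0.26 after division by the slope. The count above was 3 without *T/F* replicate 2 or 3, 4 without *D/F* or *T/F* replicate 1 and 12 without *D/F* replicate 3. *Ube2c*, the ubiquitin-conjugating enzyme that drives mitotic exit, was 128, 88.2 and 135 TPM with DMSO and 119, 81.6 and 120.4 TPM with CCS1477 in the *D/F* mice, and 117, 111 and 102 TPM and 155, 155 and 124 TPM in the *T/F* mice. *Ube2c* (chr2:164769898-164778822, plus strand) rose in *T/F* and was not called in *D/F*, with log2 responses of 0.41, 0.48 and 0.29 against -0.10, -0.11 and -0.16, a log2 difference of 0.52 (SE 0.09, unadjusted p = 0.00118, adjusted p = 0.171 from limma). The spindle factor *Tpx2* (chr2:152847964-152895321, plus strand) and the cyclin *Ccnb2* (chr9:70407692-70421547, minus strand) rose in *T/F* and were not called in *D/F*, with differences of 0.43 (unadjusted p = 0.00409) and 0.48 (unadjusted p = 0.00693). Of 40 S phase genes 0 were above and 0 below, and their median difference of 0.16 was -0.02 without *D/F* replicate 2.

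The 13 genes encoded by the mitochondrial genome, a list added after seeing the data, all had a *T/F* response above *D/F*. At an unadjusted p under 0.05, 9 were above (background 8.17%) and 0 below, with a median difference of 0.35, and within genotypes 4 fell in *D/F* (against 24.2% of all genes) and 2 rose in *T/F* (against 26.7%). The list median was -0.21, -0.22 and -0.20 in the *D/F* mice and 0.09, 0.03 and 0.28 in the *T/F* mice. Their share of TPM went from 5.39%, 4.96% and 5.41% with DMSO to 4.87%, 4.54% and 4.91% with CCS1477 in *D/F*, and from 4.76%, 4.46% and 4.08% to 5.09%, 4.64% and 4.80% in *T/F*. The share was thus lower with CCS1477 in all *D/F* and higher in all *T/F* mice, a difference of 0.897 percentage points between mean changes of -0.483 ± 0.050 and 0.414 ± 0.28 (SD, n = 3; exact permutation test, two-sided, p = 0.1, the smallest possible). Because the list was added after seeing the data, the permutation p carries no weight of its own. For the same reason the count of 9 is not read against the background. *mt-Nd1*, a subunit of complex I, fell in *D/F* and was not called in *T/F*, with a log2 difference of 0.39 (unadjusted p = 0.00572).

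Of 18 genes of the BCL2 family, which set the threshold of apoptosis, 3 had *T/F* above (background 8.17%) and 1 below *D/F* (background 6.55%) at an unadjusted p under 0.05. The median difference of -0.02 was above 0 in 4 of 6 fits without 1 mouse, up to 0.06 without *D/F* replicate 1. *Bcl2l11*, which encodes the death activator BIM, was 22.1, 45.9 and 35.8 TPM with DMSO and 66.6, 107 and 79.3 TPM with CCS1477 in the *D/F* mice, and 29.95, 49.6 and 71.5 TPM and 53.1, 65.9 and 79.5 TPM in the *T/F* mice. *Bcl2l11* (chr2:128126038-128162547, plus strand) rose in both genotypes and more in each *D/F* mouse, a log2 difference of -0.84 (SE 0.20, unadjusted p = 0.00578, adjusted p = 0.21 from limma). *Bak1*, a pore-forming effector, went from 151, 105 and 157 TPM to 90.8, 62.6 and 94.9 TPM in the *D/F* mice, and in the *T/F* mice from 149.8, 149 and 135 TPM to 118, 134 and 114 TPM. *Bak1* (chr17:27019810-27029009, minus strand) fell in both, with a difference of 0.48 (unadjusted p = 0.00156), and *Bcl2l12* fell in both with 0.46 (unadjusted p = 0.0103). *Bcl2a1b*, between which and its near-identical copies reads can be split, fell in both and differed by 1.33 (unadjusted p = 0.0064). For the survival genes *Bcl2*, *Mcl1* and *Bcl2l1* the differences were 0.17 (95% interval -0.28 to 0.62), -0.04 (95% interval -0.33 to 0.26) and -0.02 (95% interval -0.35 to 0.31), with the mice overlapping. That of *Bcl2* turned to -0.25 after division by the slope and to -0.03 without *D/F* replicate 2. *Ly6a*, which encodes the stem cell antigen Sca-1, differed by 0.82 (unadjusted p = 0.102). Its log2 responses were -2.09, -3.52 and -1.91 in *D/F*, and the difference was 0.32 without *D/F* replicate 2 and 0.47 after division by the slope.

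Both targets of the compound rose in both genotypes. *Ep300* (chr15:81585351-81652077, plus strand) had log2 responses of 0.66, 0.60 and 0.82 in *D/F* against 0.82, 0.79 and 0.83 in *T/F*, a difference of 0.12 (95% interval -0.11 to 0.34), and *Crebbp* (chr16:4081328-4213997, minus strand) differed by 0.05 (95% interval -0.16 to 0.26), which became 0.26 and 0.20 after division by the slope. Of 42 acetyltransferase, deacetylase and BET genes, 3 were above (background 8.17%) and 4 below (background 6.55%) at an unadjusted p under 0.05, with a median difference of 0.05. Without *D/F* replicate 1 these were 6 above and 2 below, with a median difference of 0.017. *Hexim1*, an inhibitor of the elongation factor P-TEFb that is used as a readout of BET inhibitors, was 16.3, 18.5 and 13.7 TPM with DMSO and 83.2, 86.02 and 78.3 TPM with CCS1477 in the *D/F* mice, and 15.6, 15.5 and 15.3 TPM and 51.9, 49.1 and 47.3 TPM in the *T/F* mice. With DMSO the genotypes overlapped, and with CCS1477 every *D/F* mouse was above every *T/F* mouse. *Hexim1* (chr11:103116231-103119725, plus strand) rose in both, with log2 responses of 2.29 in *D/F* against 1.61 in *T/F*, a log2 difference of -0.68 (SE 0.10, unadjusted p = 0.000546, adjusted p = 0.17 from limma), and the difference was -0.38 after division by the slope. *Hdac7* (chr15:97792664-97844502, minus strand), a class II deacetylase, fell in *D/F* and was not called in *T/F*, with a difference of 0.54 (unadjusted p = 0.00467). Of 35 histone genes 27 rose in *D/F* (against 29.9% of all genes) and 25 in *T/F* (against 26.7%), and 0 were above and 5 below (background 6.55%), with a median difference of -0.13 that was -0.039 after division by the slope, which left 0 below. The count below also ranged from 2 without any 1 of the *T/F* mice to 8 without *D/F* replicate 3. Most replication-dependent histone transcripts lack a poly(A) tail, and the labels name both a depletion of ribosomal RNA and an mRNA kit, so how far histone and mitochondrially encoded transcripts were captured is unknown and its part in their values was not tested. The variant histone gene *H3f3b* (chr11:116021912-116027962, minus strand) rose in both and differed by -0.45 (unadjusted p = 0.00171), and by -0.21 after division by the slope.

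The lists that follow are given with their counts above and below at an unadjusted p under 0.05, against a background of 8.17% above and 6.55% below. Of 36 JAK-STAT feedback and STAT5 target genes 2 were above and 1 below, with a median difference of 0.04. The figures were 1 and 5 of 46 for the integrated stress and unfolded protein response (median -0.15), 2 and 1 of 28 for p53 targets (-0.06), 3 and 2 of 29 for DNA methylation and TET pathway genes (0.05), 2 and 4 of 33 for RAS-MAPK feedback (-0.04), 0 and 4 of 35 for glycolysis and hypoxia (-0.06) and 0 and 0 of 20 for MHC class II presentation (0.12). Single mice moved these values. Without 1 mouse the medians ranged from -0.02 to 0.08 for JAK-STAT, -0.22 to -0.08 for the stress response, -0.11 to 0.01 for p53 targets, 0.02 to 0.13 for DNA methylation, -0.12 to -0.01 for RAS-MAPK, -0.16 to 0.05 for glycolysis and -0.16 to 0.40 for MHC class II, the last pair without *D/F* replicate 2 and without *D/F* replicate 1. The count below for the stress response ranged from 1 without *T/F* replicate 2 to 11 without *D/F* replicate 1. Without 1 mouse the count below ranged from 2 to 7 for glycolysis, 1 to 4 for p53 targets, 2 to 6 for RAS-MAPK and 0 to 2 for DNA methylation. For JAK-STAT it was 0 to 4 above and 0 to 2 below. MHC class II had 4 below without *D/F* replicate 2 and 2 above without *D/F* replicate 1. *Hspa5*, the main chaperone of the endoplasmic reticulum, fell in *T/F* and was not called in *D/F*, with a log2 difference of -0.73 (unadjusted p = 0.0183) that was -0.48 without *D/F* replicate 2. *Vegfa*, a growth factor of vessels that hypoxia induces, fell in both and more in *T/F*, with -0.48 (unadjusted p = 0.00481).

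Of the 23 genes called in opposite directions, 13 fell in *D/F* and rose in *T/F* and 10 rose in *D/F* and fell in *T/F*, and they were named after their values were seen. *Jun* and *Hsd17b7* are among them. *Rab3il1*, an exchange factor for Rab GTPases, was 2.30, 2.11 and 3.15 TPM with DMSO and 3.46, 6.38 and 4.96 TPM with CCS1477 in the *D/F* mice, and 7.97, 12.1 and 11.1 TPM and 3.85, 6.33 and 4.27 TPM in the *T/F* mice. With DMSO every *T/F* mouse was above every *D/F* mouse, and with CCS1477 the genotypes overlapped. *Rab3il1* (chr19:10001669-10038380, plus strand) had the largest log2 difference of the protein-coding genes among them that reached 5 TPM, -1.71 (unadjusted p = 0.000386). *BC100530*, a stefin A protease inhibitor, went from 10.6, 9.68 and 2.83 TPM to 6.92, 5.56 and 1.85 TPM in the *D/F* mice, and in the *T/F* mice from 18.6, 30.8 and 5.27 TPM to 36.2, 43.5 and 9.94 TPM. *BC100530* (chr16:36359382-36367748, minus strand) differed by 1.30 (unadjusted p = 0.000111), with *D/F* replicate 3 and *T/F* replicate 3 lowest in their groups. *Etfbkmt* (chr6:149139849-149151171, plus strand), a mitochondrial protein methyltransferase, differed by 0.69 (unadjusted p = 0.000117), *Rnf144a*, a ubiquitin ligase, by 0.60 (unadjusted p = 0.000333) and *Tcte3* by 0.94 (unadjusted p = 0.00144). *Mrps36* and *Man2b2*, a mitochondrial and a lysosomal protein, differed by 0.42 and 0.38, and *Klhl15*, an adaptor of a ubiquitin ligase, by -0.45. *Ptprc* is also among the 23, at 0.826 to 3.11 TPM. The remaining ones are genes at low TPM and predicted genes, pseudogenes or antisense transcripts, whose reads can be shared with other copies.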

How the data were processed

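RNA of 12 libraries, 3 mice in each of 4 groups by genotype and treatment, was sequenced by the authors, who deposited linear TPM per Ensembl gene, neither pooled nor averaged. The processing notes name kallisto and mm10, and the study's methods name AltAnalyze. The samples were matched to columns by mouse number, genotype and treatment. Gene names and positions come from GENCODE vM21 (GRCm38), and 15252 identifiers had a symbol. TPM are relative to a library and hold no read numbers, so no model of counts was fitted, and a fold on the log2(TPM + 1) scale understates the change of low genes.

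CCS1477 minus DMSO of each mouse was fitted with limma 3.58.1 in R 4.3.3 (a mean per genotype and their difference, eBayes without trend, two-sided, Benjamini-Hochberg over 15583 genes, threshold 0.05, pseudocount 1 TPM, filter at a mean of 1 TPM). Scripts were tested on simulated data. Cells with the same number came from 1 mouse by the labels. After subtracting group means, the DMSO and CCS1477 libraries of the same mouse correlated at 0.340 to 0.655 across genes. A DMSO and a CCS1477 library of different mice correlated at no more than 0.356. No libraries were identical.

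Genes named are up to 8 each way by unadjusted p with a group mean of at least 5 TPM and no overlap of mice, a fixed set (*Myc*, *Bcl2*, *Bcl2l1*, *Bcl2a1b*, *Mcl1*, *Flt3*, *Kit*, *Ly6a*, *Ep300*, *Crebbp*, *Dnmt3a*, *Tet2*), and up to 4 per list. The lists, written by hand from general knowledge, and the members were chosen with earlier results of these data known. Alternatives were no pairing, other pseudocounts, filters, scalings and eBayes settings, array weights, division by slope, and leaving out each mouse. H3K27ac and other data of the study were not analysed here, and some genes are not reported here.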

Additional observations from a re-analysis of the deposited data

Results flagged for a closer look

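In 17 protein-coding genes named in the text or its lists with a group mean of at least 5 TPM, and in 2 further stefin A genes, the response of all 3 *D/F* mice lay on one side of 0 and that of all 3 *T/F* mice on the other. In each case the difference was tested with limma and did not pass an adjusted p of 0.05, with adjusted p between 0.163 and 0.338 for the 17 genes, of which 10 were called in both genotypes. Over all 10888 protein-coding genes tested at that level, 216 (1.98%) split in this way. Genes called in opposite directions were named for that reason, so the 17 are not read against this share.

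With *D/F* lower and *T/F* higher after CCS1477, the log2 differences were 1.30 for *BC100530*, 1.53 for *Stfa2l1*, 1.43 for *Gm5483*, 1.19 for *Stfa2*, 0.94 for *Tcte3*, 0.69 for *Etfbkmt*, 0.63 for *mt-Atp8*, 0.60 for *Rnf144a*, 0.52 for *Ube2c*, 0.42 for *Mrps36*, 0.39 for *mt-Nd5*, 0.39 for *Dhx58*, 0.38 for *Man2b2* and 0.19 for *Csf2ra*, a subunit of the GM-CSF receptor. With *D/F* higher and *T/F* lower, they were -1.71 for *Rab3il1*, -1.19 for *Jun*, -0.89 for *Rpl34*, -0.62 for *Hsd17b7* and -0.45 for *Klhl15*. *Ptprc*, below that TPM limit, was also higher in *D/F* and lower in *T/F*, with a log2 difference of -1.02.

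The medians of 3 lists split in the same way, at -0.32 for AP-1 and Egr immediate early genes, -0.30 for cholesterol and fatty acid synthesis genes and 0.35 for mitochondrially encoded genes, and so did the mitochondrially encoded share of TPM, by 0.897 percentage points. In *T/F* replicate 1 the AP-1 and Egr median was -0.0018, next to 0. These list medians carry no p of their own.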

How the results depend on the processing

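No gene passed an adjusted p of 0.05 for the difference between genotypes under any of 16 other settings with limma. The lowest adjusted p from limma ranged from 0.0821 to 0.768 over all settings, and from 0.117 to 0.407 over the mice left out. Depth is unknown, and 3 mice per genotype limit what can be called. With the pairing of cells from 1 mouse ignored (no replicate block), 390 genes were above and 269 below at an unadjusted p under 0.05, and 4932 genes responded in *D/F* against 3671 in *T/F*. In the main fit, which keeps the pairing, 100 genes were above and 74 below when an absolute difference above 1 was required in addition. Leaving out each mouse gave 784 to 1497 genes above and 623 to 1167 below. It gave 6764 to 7799 genes that responded in *D/F* and 4611 to 8123 in *T/F*. The spread of *D/F* over *T/F* ranged from 1.05 without *D/F* replicate 2 to 2.05 without *T/F* replicate 3. Of 2701 values of 170 named genes under other settings, 2682 kept their direction. The 19 others belong to 10 genes. The difference of Dnmt3a turned to -0.029 with rescaling to the median gene, -0.00160 with quantile normalization and -0.086 with array weights, and ranged from -0.19 to 0.13 over the mice left out. Quantile normalization turned the difference of Crebbp to -0.0046. Division by slope turned the difference of Bcl2 to -0.25, the difference of Igsf6 to -0.13 and the difference of Csf1r to -0.13. Over the mice left out, the difference of Bcl2 ranged from -0.032 to 0.30, the difference of Bcl2l1 from -0.13 to 0.056, the difference of Mcl1 from -0.15 to 0.017, the difference of Tet2 from -0.13 to 0.018, the difference of Timd4 from -0.96 to 0.16 and the difference of Vwf from -0.060 to 0.18. The causes were not tested.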

Other observations

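Genes of the stefin A family, small inhibitors of cysteine proteases that lie next to each other on chromosome 16, differed together, and they were chosen after their values were seen. All 6 tested, *Stfa1*, *Stfa2*, *Stfa2l1*, *Stfa3*, *BC100530* and *Gm5483*, had the *T/F* response above *D/F* by 1.11 to 1.53 on the log2 scale. The unadjusted p was under 0.05 in 6 (background 8.17% of all genes above), and the mice did not overlap in 5 (background 13%). Because these genes were chosen from their values, the counts are not read against those shares. With limma their adjusted p was 0.163 to 0.298. Their summed level went from 39.9, 52.7 and 15.5 TPM to 20.96, 17.6 and 7.59 TPM in the *D/F* mice, and from 119.9, 149 and 34.4 TPM to 176, 184 and 44.98 TPM in the *T/F* mice. The sum was thus lower with CCS1477 in each *D/F* and higher in each *T/F* mouse, and replicate 3 was lowest in each group. The genes are near-identical copies, so reads can be split between them and they do not count as 6 separate results.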
